A study of Mus musculus with 2 samples.

Results

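Matrix metalloproteinases (MMPs) and their tissue inhibitors (TIMPs) were examined as 10 genes, 7 proteases (Mmp2, Mmp3, Mmp9, Mmp10, Mmp11, Mmp13 and Mmp14) and 3 inhibitors (Timp1, Timp2 and Timp3), among 8251 genes named on the array. All 15 probe sets that the platform annotation assigns to exactly 1 of these genes were taken, and 4 of the genes had more than 1 probe set. The RNA came from mouse 3T3 cells, an immortalised line of embryonic fibroblasts, on Affymetrix MG_U74Av2 arrays. In the fibronectin group the cells were plated for 30 min at 10 µg/ml fibronectin, the adhesive matrix glycoprotein that integrins bind. In the suspension group they were held unattached. Both groups were in serum-free DMEM, with RNA at 2.5 µg/µl. Each group had 1 array, so no difference could be tested or set against replicates, and the words higher and lower refer to these 2 arrays alone. The series text speaks of 2 replicates beside its 2 samples, whereas the labels give each group a single sample, and what the replicates were was not settled. Chip lot, fluidics module and scan day also differed between the arrays, per the file headers, and cannot be told apart from the group. The sources used here do not say whether both samples came from the same culture or how long the cells stayed in suspension.

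MMPs are zinc-dependent endopeptidases that are made as inactive proenzymes and cleave collagens, proteoglycans and other matrix proteins once their propeptide is removed. TIMPs bind the active site and block it. Timp2 also has a part in activation: on the cell surface it links the membrane protease Mmp14 to the proenzyme of Mmp2, which a neighbouring free Mmp14 then cleaves. Fibroblasts are a main source of both families, and several MMP genes are textbook targets of the AP-1 factors, dimers of Fos and Jun proteins.

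The promoters of the interstitial collagenase and stromelysin genes are shown because Mmp13, Mmp3 and Mmp10 each carry AP-1 letters upstream of TATA letters, with other strands, spacings and PEA3 matches, while their readings on the arrays differed. The 3 genes lie on mouse chromosome 9 within a run of 6 neighbouring protein-coding genes that also holds Mmp12, Mmp1b and Mmp1a. The 250 bases before the annotated start are given 5′ to 3′ on the gene strand, from RefSeq on GRCm38.p6. Capitals mark matches to 3 motifs, none of which overlap. The AP-1 motif, TGAGTCA, was searched on both strands. The PEA3 motif of Ets factors, AGGAAG, was also searched on both strands. The TATA motif, TATAAA, was searched on the gene strand. The windows are chr9:7272264-7272513 (+) for Mmp13, chr9:7445572-7445821 (+) for Mmp3, chr9:7502092-7502341 (+) for Mmp10 and chr11:118355412-118355661 (-) for Timp2, which is included for contrast.
Mmp13: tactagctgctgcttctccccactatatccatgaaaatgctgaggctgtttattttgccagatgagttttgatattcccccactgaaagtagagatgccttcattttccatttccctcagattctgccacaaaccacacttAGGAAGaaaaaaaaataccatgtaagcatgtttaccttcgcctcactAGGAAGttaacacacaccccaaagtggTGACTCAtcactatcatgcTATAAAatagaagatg
Mmp3: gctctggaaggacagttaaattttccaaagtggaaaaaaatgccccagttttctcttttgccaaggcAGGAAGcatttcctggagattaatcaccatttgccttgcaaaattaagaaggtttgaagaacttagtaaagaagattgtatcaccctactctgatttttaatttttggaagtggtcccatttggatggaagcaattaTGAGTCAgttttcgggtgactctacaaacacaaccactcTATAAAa
Mmp10: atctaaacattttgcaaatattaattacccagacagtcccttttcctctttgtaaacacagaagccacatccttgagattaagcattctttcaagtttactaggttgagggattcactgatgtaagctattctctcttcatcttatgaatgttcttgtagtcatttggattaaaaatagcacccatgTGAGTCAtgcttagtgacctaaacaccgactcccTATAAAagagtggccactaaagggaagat
Timp2: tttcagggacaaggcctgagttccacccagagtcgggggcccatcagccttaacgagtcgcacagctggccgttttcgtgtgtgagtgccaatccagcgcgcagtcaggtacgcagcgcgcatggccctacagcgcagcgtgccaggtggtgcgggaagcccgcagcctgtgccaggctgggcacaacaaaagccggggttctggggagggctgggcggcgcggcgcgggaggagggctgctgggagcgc
The AP-1 letters begin 35 bases before the start in Mmp13, where they stand on the opposite strand, 46 bases before it in Mmp3 and 63 bases before it in Mmp10. TATAAA follows downstream in each of the 3, at 16, 7 and 29 bases before the start in that order. Of all 32851 RefSeq promoters of this length, 4.46% hold the AP-1 letters, 7.59% hold TATAAA and 0.481% hold both. RefSeq promoters matched 8 of the 10 genes. Among these, 3 had the AP-1 letters, and the same 3 had TATAAA. The PEA3 letters, present in 29.5% of all promoters, occurred in 5 of them, with 2 matches each in Mmp13 and Timp1 and 1 each in Mmp3, Mmp14 and Timp3. The Timp2 window, 68% G and C against a median of 52.4% over all promoters, held none of the 3 motifs, and neither did that of Mmp11. These letters were read from the reference and not from the cells, and a match is no evidence of binding.

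**Figure D1:**
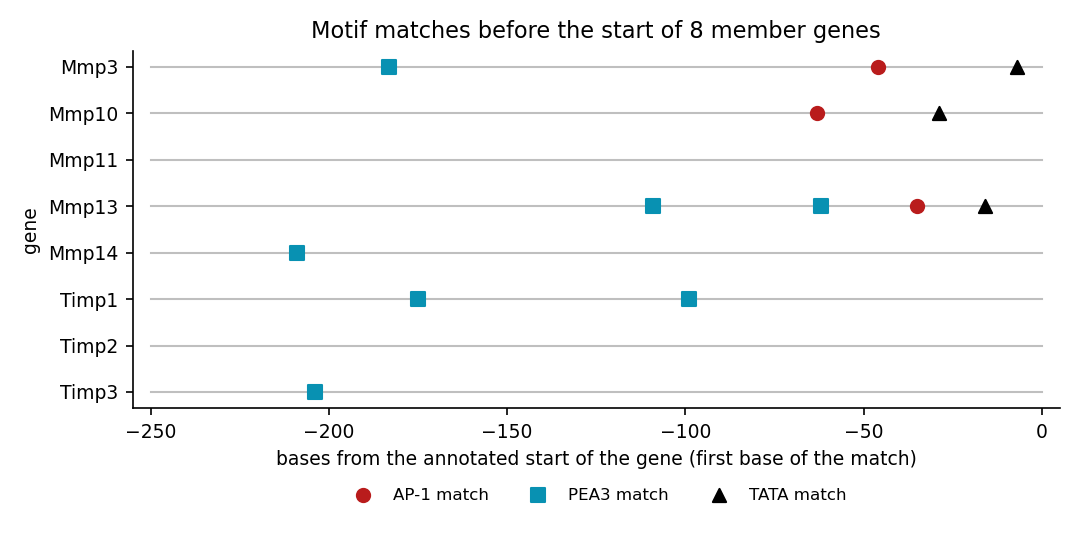
Matches to the AP-1, PEA3 and TATA letters in the 250 bases before the annotated start of 8 genes, by distance of the first matched base from the start. Mmp3, Mmp10 and Mmp13 each have an AP-1 match with a TATA match downstream of it, and Mmp11 and Timp2 have no match.

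Signals are the deposited intensities after scaling, on a linear scale. A common floor of 489.8 was applied before log2 ratios, fibronectin minus suspension, were taken, and a gene was called measured if at least 1 array reached it. As a guide to background, the 95th percentile of 34 negative control probe sets (antisense, bacterial and yeast sequences) was 1873 on the fibronectin array and 1403 on the suspension array. Mmp14, Timp1, Timp2 and Timp3 lay above these levels in both arrays. Mmp9 and Mmp13 did so on fibronectin alone, Mmp3 and Mmp11 in suspension alone, and Mmp2 and Mmp10 in neither. The SD of the difference in log2 ratio between probe sets of the same gene was taken as a root mean square about 0. It was 0.97 over 1146 genes with a pair of measured probe sets. It was 0.56 over the 197 genes with a pair above the negative controls in both arrays. Divided by the square root of 2, these give an SD of 0.69 for a single ratio of a measured probe set and of 0.40 for one above the controls, which include no biological variation. In bulk RNA, a different number of expressing cells and a different RNA amount per cell cannot be told apart.

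The secreted inhibitor Timp2 had the largest ratio of the 4 genes above the negative controls in both arrays. Its probe set 93507_at had a signal of 16762 on fibronectin, against 5098 in suspension, which is 3.29-fold higher (log2 ratio 1.72). Both signals lay far above the negative controls. Of 2263 genes above the negative controls in both arrays, 6 had a higher ratio (0.265%). The other probe sets of Timp2, 160116_at and 161515_i_at, were below the floor in both arrays, with signals of 139.8 and 76.1 on fibronectin, against 279 and 104 in suspension. The direction of Timp2 therefore rests on 1 probe set. The ratio of 93507_at lay between 1.24 and 1.92 under the 4 other scalings, and the floors could not move it.

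The other inhibitors differed less. Timp3, which is held in the extracellular matrix, had a signal of 8117 on fibronectin, against 5096 in suspension (1.59-fold higher, log2 ratio 0.67), and 298 of the 2263 genes had a higher ratio (13.2%). Timp1, the secreted inhibitor that growth factors induce in fibroblasts, had 18948 on fibronectin, against 15158 in suspension, in probe set 101464_at. This is 1.25-fold higher (log2 ratio 0.32), with 748 of the 2263 genes higher (33.1%). The ratio of Timp1 was smaller than the SD of 0.40, while that of Timp3 exceeded it. With the arrays scaled to the hybridisation spikes, control transcripts added to both, Timp3 had 0.20 and Timp1 turned to -0.15. A further probe set of Timp1, 162107_r_at, was below the floor in both arrays, at 165 on fibronectin and 147 in suspension.

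Mmp14, the membrane-anchored collagenase that activates pro-Mmp2, was the only protease of the 7 above the negative controls in both arrays. Its signal was 16744 on fibronectin, against 10299.9 in suspension, or 1.63-fold higher (log2 ratio 0.70), which exceeds the SD of 0.40, and 260 of the 2263 genes had a higher ratio (11.5%). Under the 4 other scalings its log2 ratio lay between 0.23 and 0.91. Its substrate Mmp2, gelatinase A, gave no usable reading. Probe set 161509_at had 503 on fibronectin, against 152 in suspension, and 95663_at had 139 on fibronectin, against 434 in suspension. The probe sets thus pointed in opposite directions, and all 4 signals lay among those of the negative controls. Mmp2 passed the floor only through the fibronectin array, and set against the floor it was 1.03-fold higher there.

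The difference between the changes of a pair of genes does not depend on how the arrays are scaled by a constant, since both genes share the factor. The log2 ratio of Timp2 exceeded that of Mmp14 by 1.02, so the quotient of their signals was 2.02-fold higher on fibronectin. Only quantile normalization and loess could move the gap, which they gave as 1.05 and 1.02. Timp2 exceeded Timp3 by 1.05 and Timp1 by 1.40. These 3 gaps were larger than the SD of 0.56 between bright probe sets of the same gene. Mmp14 and Timp3 moved by nearly the same factor, with a difference of 0.03, and Mmp14 exceeded Timp1 by 0.38, within that SD.

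**Figure D2:**
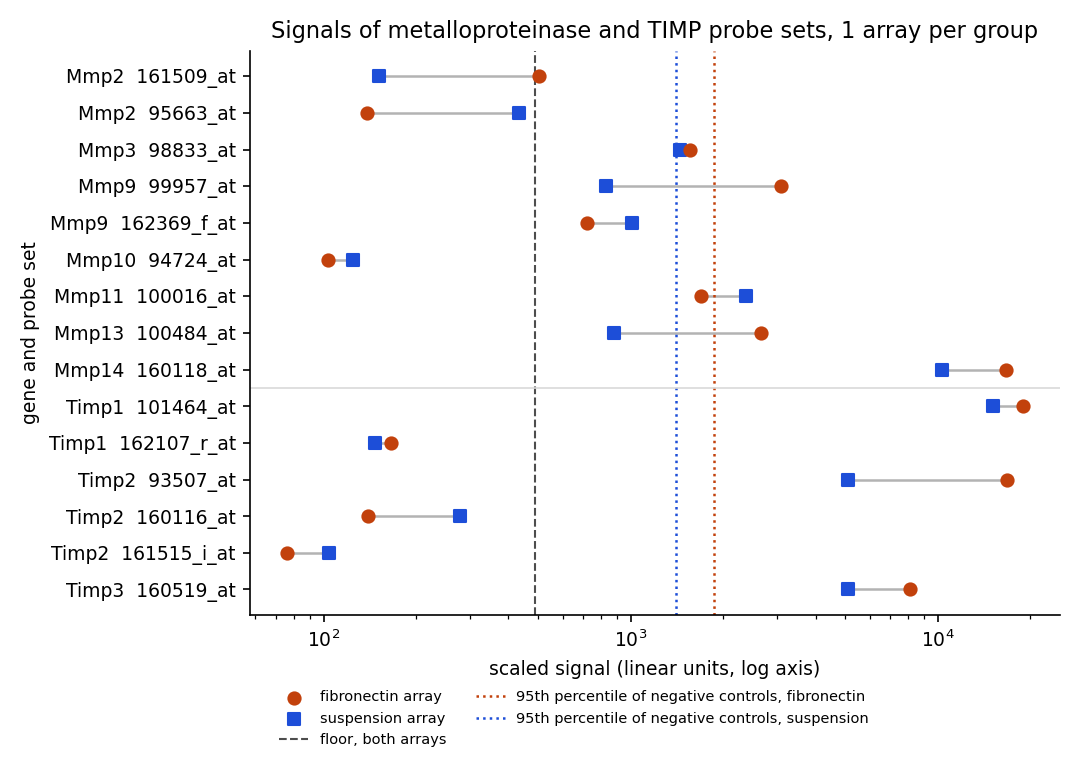
Scaled signal (log axis) of each of the 15 probe sets on the fibronectin array (circles) and the suspension array (squares), with the floor and the 95th percentiles of the negative controls as vertical lines. Mmp14, Timp3, 101464_at of Timp1 and 93507_at of Timp2 lie right of all lines in both arrays, and Timp2 shows the widest gap of these 4.

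The secreted proteases Mmp9 and Mmp13 had the other large ratios. Mmp13, the rodent collagenase that cleaves fibrillar collagen, had a signal of 2666 on fibronectin, against 885 in suspension, 3.01-fold higher (log2 ratio 1.59). Mmp9, gelatinase B, had 3090 on fibronectin, against 829.6 in suspension, in probe set 99957_at, 3.72-fold higher (log2 ratio 1.90). Of the 6385 measured genes, 36 had a higher ratio than Mmp9 and 85 a higher one than Mmp13. The suspension signals of both lay below the negative controls' 95th percentile, so the size of the folds is uncertain. With the floor raised to the level of those controls, a mean of both arrays' percentiles, the log2 ratios were 0.92 for Mmp9 and 0.70 for Mmp13. The other Mmp9 probe set, 162369_f_at, whose suffix marks a sequence family, went the other way, with 722 on fibronectin and 1010.1 in suspension (log2 ratio -0.48). Both of its signals lay below the negative controls' percentiles. The direction of Mmp9 was thus not settled by its probe sets. Mmp13 had a single probe set, with a log2 ratio between 1.12 and 1.80 under the 4 other scalings. The floors could lower this ratio but not turn its sign, and the choice of probe set could not move it.

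The stromelysins showed little. Mmp3, stromelysin 1, which degrades proteoglycans and activates other proenzymes, had 1557 on fibronectin, against 1444 in suspension (1.08-fold higher, log2 ratio 0.11). Its ratio became -0.36 when the arrays were scaled to the spikes. Mmp10, stromelysin 2, was below the floor in both arrays, with 103 on fibronectin and 125 in suspension, so no ratio was formed. Mmp11, stromelysin 3, which is activated inside the cell by furin, was the only measured gene of the 10 with a lower signal on fibronectin, 1694 against 2372 in suspension. It was 1.40-fold lower (log2 ratio -0.49), smaller than the SD of 0.69. Under the other scalings its log2 ratio lay between -0.96 and -0.28. The floors and the choice of probe set could not move this ratio. The 3 genes with AP-1 and TATA letters in their promoters thus included a higher signal on fibronectin of uncertain size (Mmp13), a ratio near 0 (Mmp3) and a gene with no ratio (Mmp10).

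**Figure D3:**
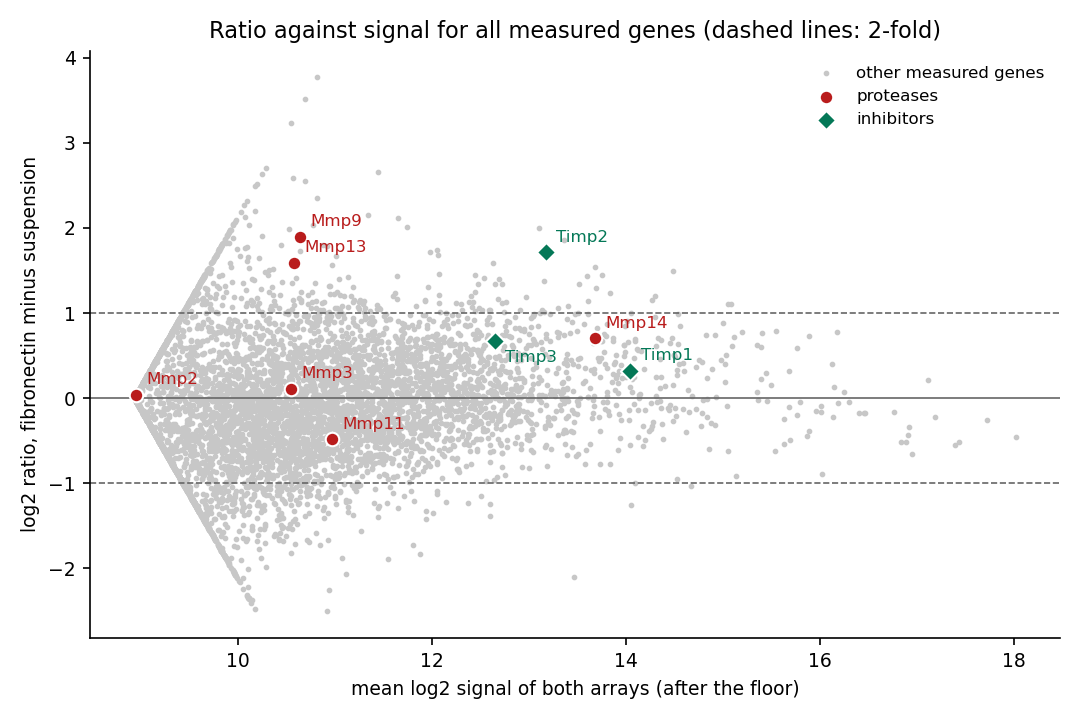
Log2 ratio, fibronectin minus suspension, against mean log2 signal for the 6385 measured genes (grey), with 6 proteases (circles) and 3 inhibitors (diamonds) named and dashed lines at 2-fold. Timp2 stands above nearly all genes of like signal, and Mmp9 and Mmp13 lie high at low signal, where the spread of all genes is wider; Mmp10 was below the floor and is not drawn.

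Set against each other, proteases and inhibitors did not separate. The median log2 ratio was 0.40 over the 6 measured proteases and 0.67 over the 3 inhibitors, beside -0.09 over all measured genes. The 6 proteases include Mmp2, which passed the floor on 1 array alone, and leave out Mmp10. Without a floor, so that all 10 genes entered, the medians were 0.70 for the 7 proteases and 0.67 for the inhibitors, beside -0.15 over all genes. The difference of the medians, proteases minus inhibitors, was -0.27 and ranged between -0.56 and 0.39 over the 10 alternatives, above 0 in 4 of them. The log2 ratios of the 6 proteases lay between -0.49 and 1.90, or up to 1.59 with Mmp9 read from its other probe set, and those of the 3 inhibitors between 0.32 and 1.72. The median of the proteases itself moved between 0.10 with scaling to the spikes and 1.06 with the floor at the 20th percentile, where Mmp2 had a ratio of 1.41.

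Of the 9 measured genes, 8 had a ratio above 0, beside 44.9% of all measured genes. They included Mmp2, which passed the floor only through the fibronectin array. Without it 7 of 8 were above 0, and with Mmp9 also read from its other probe set 6 of 8. These counts describe the list and support no direction. At least 2-fold higher on fibronectin were 3 (Timp2, Mmp9 and Mmp13), beside 5.79% of measured genes, and 5 were at least 1.5-fold higher with Mmp14 and Timp3, beside 15.9%. None of the 9 was 2-fold or 1.5-fold lower, beside 9.27% and 22.6% of measured genes. Among the 4 genes above the negative controls in both arrays, all 4 had a positive ratio, 3 reached 1.5-fold and 1 reached 2-fold. The shares of all 2263 such genes were 57.8%, 16.9% and 3.8%. None of the 4 was lower on fibronectin, beside 7.29% of the 2263 at 1.5-fold and 1.02% at 2-fold. The percentile was higher on fibronectin (1873) than in suspension (1403), so this filter falls more on genes that are lower on fibronectin. It left out Mmp11, with 1694 on fibronectin and 2372 in suspension. These counts and shares carry that tilt and support no direction either. Scaling by the median moved the median of all measured genes to 0.11, and scaling to the spikes moved it to -0.51. With spike scaling Mmp2, Mmp3 and Timp1 had ratios below 0 along with Mmp11, and Timp2, Mmp9 and Mmp13 were still at least 2-fold higher. After quantile normalization, loess or scaling to the spikes, Mmp14 and Timp3 were below 1.5-fold.

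**Figure D4:**
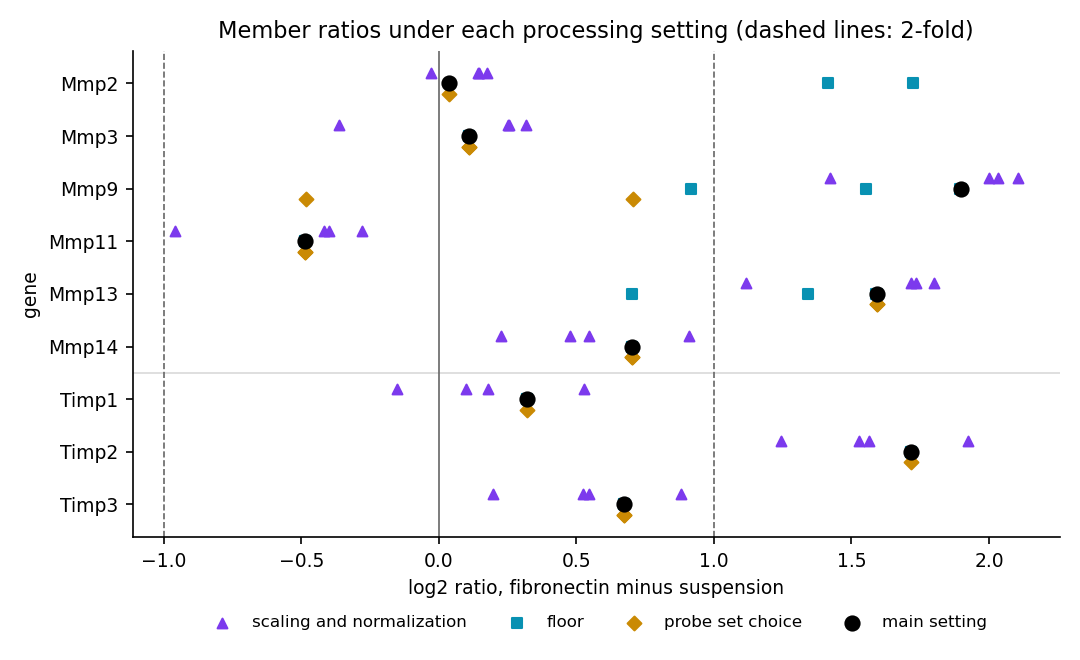
Log2 ratio of each measured gene under the main setting (black circles) and the alternatives, grouped as scaling and normalization, floor, and choice of probe set. Timp2 stays right of the 2-fold line under the 9 alternatives drawn for it, of which only scaling and normalization could move it. Its next probe set was below the floor and is not drawn. Mmp13 falls below the 2-fold line under 1 floor, and the ratio of Mmp9 takes the opposite sign when its other probe set is read.

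Other genes of both families were few on the array. Of 17 listed, 6 had a probe set and 3 were measured, with a median log2 ratio of -0.64. Mmp16, another membrane-anchored MMP able to activate pro-Mmp2, had 1878 on fibronectin, against 653 in suspension, 2.88-fold higher. Mmp12, macrophage elastase, had 575 on fibronectin and 961 in suspension, and Mmp17, a membrane-bound MMP, had 356 on fibronectin and 761 in suspension. Apart from Mmp16 on fibronectin, which exceeded its 95th percentile narrowly, these signals lay below the negative controls' percentiles, so no fold is given for Mmp12 and Mmp17 and that of Mmp16 is uncertain. Mmp7, Mmp8 and Mmp24 were below the floor in both arrays.

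Among genes that activate, restrain or bind these proteases, 32 of 38 were on the array and 27 were measured, with a median log2 ratio of 0.47. Past 2-fold were 4 that were higher and 2 that were lower, beside 5.79% and 9.27% of all measured genes. Scaled to the spikes, these genes had a median of 0.15. The urokinase receptor gene Plaur, which focuses plasmin formation on the cell surface, had 1849 on fibronectin and 311 in suspension, both below the negative controls' percentiles, so no fold is given. Cd44, a hyaluronan receptor that also docks Mmp9 and Mmp14, had 2158 on fibronectin and 758 in suspension by 1 probe set. Another went the other way, with 37.5 and 529 in the same order, both below those percentiles. The lysosomal protease Ctsl was 2.73-fold higher, at 22879 on fibronectin and 8373 in suspension, and the tissue plasminogen activator Plat 1.95-fold higher. The proprotein convertases differed among themselves. Furin, which activates Mmp11 and Mmp14, was 1.26-fold higher. Pcsk5 and Pcsk6 had 751 and 302 on fibronectin, against 1708 and 2085 in suspension. The fibronectin signals of Pcsk5 and Pcsk6 and the suspension signal of Cd44 lay below those percentiles, so no folds are given for these genes. Urokinase (Plau) had 719.6 on fibronectin and 1277 in suspension, both below them. Bsg (EMMPRIN, an inducer of MMPs) was 1.37-fold higher, and the membrane inhibitor Reck was below the floor in both arrays. The fourth gene past 2-fold, Cav1, named after its values were seen, was 2.18-fold higher by 160280_at, at 8146 on fibronectin and 3731 in suspension. Its other probe set, 97849_at, went the other way, with 628 and 1401.8 in the same order. Both of these lay below the negative controls' percentiles, the second narrowly.

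Of 34 listed matrix genes, substrates of the proteases among them, 28 were measured. Of these, 23 had a ratio above 0, beside 44.9% of all measured genes. The share was 57.8% over all genes above the negative controls in both arrays. The median of the matrix genes was 0.48, but 0.0040 with scaling to the spikes. Past 2-fold were 6 that were higher and 1 that was lower, beside 5.79% and 9.27% of all measured genes. Col6a3 and Col5a2 were 3.64-fold and 2.91-fold higher, with signals of 20117 and 22530.4 on fibronectin, against 5528 and 7742 in suspension. Col6a1 was 2.15-fold higher. The basement membrane gene Nid2 had 2066 on fibronectin and 834 in suspension, and Col7a1, the anchoring fibril collagen, 312 and 1503 in the same order. The lower signal of each was below the negative controls' percentile, as were both of elastin (Eln), 1519 on fibronectin and 555 in suspension, and no folds are given. The type I collagen gene Col1a1, the classic substrate of Mmp13 and Mmp14, had a log2 ratio of 0.59, and Fn1, the gene of fibronectin, was 1.04-fold lower. Lamc1, also past 2-fold, had 2483 on fibronectin and 542 in suspension by 161706_f_at. Its other probe set had the opposite sign, with 611 and 757 in the same order. Of these signals only the 2483 exceeded its percentile.

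Transcription factors that bind MMP promoters showed no common direction, with a median of 0.02 over 20 measured genes. Past 2-fold were 4 that were higher and 3 that were lower, beside 5.79% and 9.27% of all measured genes. Within AP-1, Fosl1 had 1934 on fibronectin and 486 in suspension and Fosl2 1171 and 478 in the same order. Fos was 1.99-fold lower, Junb 2.05-fold lower and Jun 1.47-fold lower. The other probe set of Junb was 1.46-fold lower. That of Fos went the other way, with 627 on fibronectin and 199 in suspension, both below the negative controls' percentiles. In the Ets family, Ets2 and Ets1 had signals of 1873 and 203 on fibronectin, against 912 and 2042 in suspension. Runx1, of the Runt family, had 1198 on fibronectin and 529.7 in suspension. Both signals of Fosl2, Ets2 and Runx1 lay below the negative controls' percentiles, as did the lower one of Fosl1 and of Ets1, and no folds are given for them. The third gene past 2-fold lower was Etv4, named after its values were seen. Its other probe set went the other way, with 653 on fibronectin and 261 in suspension, both below those percentiles.

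**Figure D5:**
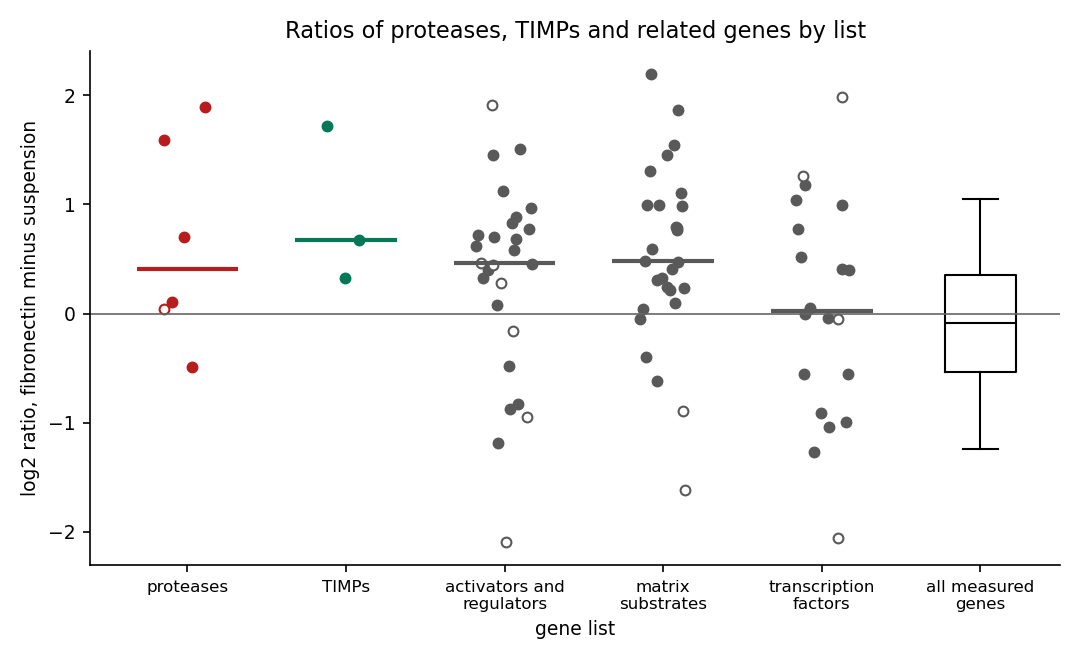
Log2 ratios of measured genes by list, with filled points for genes above the floor in both arrays, open points for bounds, and bars at the list medians; the box of all measured genes shows median and quartiles, with whiskers at the 5th and 95th percentiles. Medians were 0.40 for proteases, 0.67 for TIMPs, 0.47 for activators and regulators, 0.48 for substrates and 0.02 for transcription factors, beside -0.09 for all measured genes.

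The labelled cell type was checked with marker genes. Of 12 fibroblast markers, 8 lay above the negative controls' 95th percentile in both arrays, among them Col1a1, Col1a2, Col3a1, Pdgfra and Pdgfrb, while Thy1 and Lum were below it in both. In suspension 10 were above it, against 8 on fibronectin, with Vim and Postn above it in suspension alone. Counts per array, here and for the other cell types, do not compare signals. The percentile was 1873 on fibronectin and 1403 in suspension, so a marker of like signal passes it more readily in suspension. Of 12 macrophage and neutrophil markers, whose cells are rich sources of Mmp9, only Cd14 was above it in both arrays. Ptprc, Adgre1, Cd68, Itgam and Lyz2 were below it in both. In suspension 3 of this list were above it, against 1 on fibronectin. The summed signal was 231424 on fibronectin and 157754 in suspension for fibroblast markers, and 9170 and 12501 in the same order for the macrophage and neutrophil list. No marker of 8 for epithelium, 6 for endothelium or 5 for bone and cartilage was above the percentile in both arrays. In suspension alone, 2 for epithelium and 1 for bone and cartilage were above it. Of 11 measured fibroblast markers, 8 had a ratio above 0 and 3 below. Much of the fibroblast sums came from Col1a1 and Col1a2, which are also among the matrix genes above. These had 68592 and 63147 on fibronectin, against 45605 and 36666 in suspension. The part of the shift in summed fibroblast markers in the ratios of the proteases and inhibitors was not tested.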

How the data were processed

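The authors deposited 1 intensity per probe set and array, a MAS5 signal per the submitters' processing notes. Neither its version nor its scaling target is given in the sources used here. Detection calls were not used here. Over 12422 probe sets that are not controls, the deposited intensities had 2% trimmed means of 1486 on fibronectin and 1489 in suspension. Both arrays were brought to the mean of these (factors 1.00 and 0.999). The floor was the mean of both arrays' 40th percentiles. Genes came from the platform annotation: 10855 of 12488 probe sets had 1 symbol, 396 several and 1237 none. A gene was read from the probe set with the highest mean log2 signal, and probe sets for related sequences may detect relatives.

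The members and gene lists were chosen with earlier results of these data known. Besides all 10 members, the text names up to 6 genes with the largest absolute log2 ratio per list, unless another measured probe set had the opposite sign beyond 0.3, and a fixed set (Plau, Plat, Plaur, Furin, Bsg, Reck, Fos, Jun, Fosl1, Ets1, Ets2, Col1a1 and Fn1); a further item is not reported here. With 1 array per group no test was run. Precision is limited by the number of arrays, by signals near the negative controls and by disagreement between probe sets. Python 3.11.15, pandas 2.3.3 and statsmodels 0.14.6 (loess) were used, and the steps were tested on simulated data. A planned comparison of protein sequences was not made. The 10 alternatives were median scaling, quantile normalization, loess, scaling to 9 hybridisation spikes, floors at the 20th and 60th percentiles or at the negative controls, no floor with a pseudocount of 1, the mean of a gene's probe sets, and its next probe set.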

Additional observations from a re-analysis of the deposited data

How the results depend on the processing

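No paired analysis was possible because each group has 1 array. Movements were set against the SD of 0.69 of a log2 ratio between probe sets, and counts against 1.5 times. The median of proteases ranged between 0.10 (spikes) and 1.06 (floor at the 20th percentile) and that of inhibitors between 0.20 and 0.88, over 10 alternatives each. Floors could not move the inhibitors, and with the next probe set Timp3 alone was measured among them. Mmp2 had 1.41 at the 20th percentile and 1.72 without a floor. Chosen after seeing the data, counts of members above 0 without Mmp2, with Mmp9 turned to its other probe set, or both, were 7, 7 and 6, beside 8. The ratio of Mmp9 reversed to -0.48 in its other probe set, whose signals lay below the negative controls' percentiles in both arrays. Members at least 2-fold higher numbered 1 with the floor at the negative controls or the next probe set, and those at least 1.5-fold higher 3 after quantile normalization, loess, scaling to spikes or the next probe set; 1 (Mmp11) was at least 1.5-fold lower with spikes. The causes were not tested. The median of the other family genes reversed to 0.84 with the floor at the 60th percentile, 0.20 at the negative controls and 0.44 with the next probe set, each over fewer measured genes. Those genes at least 2-fold higher numbered 0 with the 60th percentile or control floor, and 1 was 2-fold lower with spikes, the 20th percentile or no floor. Activators and regulators at least 2-fold higher numbered 7 with median scaling, the 20th percentile or no floor, and 2 with spikes or the control floor; 2-fold lower were 1 with median scaling, loess or the mean of probe sets, 5 with spikes and 0 with the 60th percentile or control floor. Substrates at least 2-fold higher numbered 3 with spikes, the control floor or the next probe set; 2-fold lower were 3 with spikes or no floor, 2 at the 20th percentile and 0 with the 60th percentile or control floor. Transcription factors at least 2-fold higher numbered 1 with spikes and 0 with the 60th percentile or control floor; 2-fold lower were 7 with spikes, 1 with the mean of probe sets and 0 with the next probe set. Over all genes, 370 higher and 592 lower ones passed 2-fold; these were 596 and 405 with median scaling, 468 and 450 with quantile normalization, 462 and 440 with loess, 134 and 1409 with spikes, 817 and 1179 at the 20th percentile, 155 and 158 at the 60th, 96 and 47 at the controls, and 930 and 1536 without a floor. The share of higher against lower genes was 38.5% in the main setting, 59.5%, 51.0% and 51.2% with those 3 scalings and 8.68% with spikes.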
